A study of Mus musculus with 6 samples.

Results

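The genes described here are those of vesicle trafficking, endocytosis and SNARE-mediated fusion that were listed in a comparison of embryonic and adult mouse choroid plexus. They were chosen by annotation and name and not by any measured value. A transcript cluster, the array's unit for 1 gene, built from the probe sets of its exons, was taken if its biological process text held "vesicle-mediated transport", "endocytosis" or "exocytosis", or if its symbol began with Vamp, Stx, Snx or Rab plus a digit. Clusters with a symbol starting with Slc or Abc, a lysosomal component, or a cell cycle or immune response process were left out. This gave 97 of the 3956 clusters in the 2 deposited tables that were joined, 2.45% of them. The 97 clusters carried 96 distinct symbol entries, since Kif1c had 2 clusters, and 4 clusters were shared by several symbols. A further 12 clusters met the name or process rule and were left out, 6 for cell cycle, 4 for lysosome and 2 for immune response terms.

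Whole lateral ventricular choroid plexus was taken from healthy Swiss Webster mice at embryonic day 15 (E15) and from adults, with no treatment and no genetic change in either group. RNA of pooled tissue was amplified in 2 rounds and hybridized to 3 mouse exon arrays (Affymetrix) at each age, 6 in all. The labels give 30 mixed-sex embryos for each E15 pool and 10 females for each adult pool, so age and the sex of the animals cannot be told apart. The labels give no age for the adults beyond that word, and the supplementary description of the arrays puts them at over 3 months, while the methods give 10 weeks for adults used in tissue sections. The pieces of plexus held epithelium together with vessels, stroma, blood cells and any attached brain tissue.

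A cell moves membrane and cargo between its compartments in vesicles. Coats such as clathrin, with adaptor complexes that pick the cargo, bend the membrane into a bud, dynamins and their partners cut it off, Rab GTPases tether the vesicle to its target, and SNARE proteins on both membranes zip together to fuse them. In the choroid plexus, whose epithelium secretes cerebrospinal fluid and forms the blood-cerebrospinal fluid barrier, these proteins place transporters on the apical and basolateral membranes and carry proteins through the cells.

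Both tables give 1 log2 value for each age, merged over the 3 arrays of that age by the authors and centred near 0 for each cluster. The values therefore compare the ages and carry no level of expression, so the genes cannot be ranked by abundance. There is no value for a single array, so no SD, SE or test accompanies any value below, and the number of arrays limits the precision. A difference is the adult minus the E15 value on the log2 scale, and a fold is 2 raised to the size of that difference. The gene-level table lists the clusters that were at least 2-fold apart and had a corrected p of 0.05 or less in the authors' unpaired test. The splicing index table lists clusters that the authors' exon-level analysis selected, with the same gene-level values for its clusters. A cluster in neither table has no value here, and this says nothing of whether the gene was expressed. In tissue pieces of this kind, fewer cells of a type and less RNA per cell cannot be told apart.

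The trafficking genes leaned towards the adult. Of the 97 clusters, 67 were higher in the adult (69.1%) and 30 at E15 (30.9%), whereas 45.9% of all 3956 clusters were higher in the adult. The 3956 keep the clusters with cell cycle, lysosome or immune response terms, which the rule left out of the 97. With such clusters kept among the trafficking genes, 37 of 109 were higher at E15. The median difference was 0.28 over the trafficking clusters and -0.16 over all clusters. The gene-level table listed 34 of the 97 (35.1%), against a background of 45.6% of all clusters. In it, 25 were higher in the adult (25.8%, background 22.2%) and 9 at E15 (9.28%, background 23.4%). The adult share of the listed genes was 73.5%, and over all listed clusters it was 48.8%. The 63 clusters that stood only in the splicing index table leaned the same way, with 42 (66.7%) higher in the adult against 43.5% of all clusters of that kind. Setting each age to the median of the joined table added 0.15 to every difference, which left the sign of all but 1 of the 97 clusters, Exoc1, as it was.

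**Figure D1:**
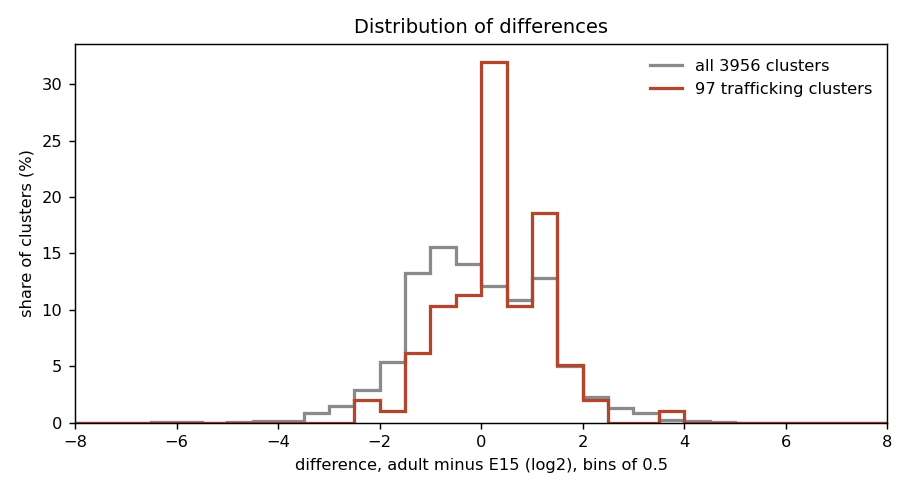
Share of clusters (percent, vertical axis) in bins of 0.5 of the adult minus E15 difference (log2, horizontal axis), for the 97 trafficking clusters and for all 3956 clusters. The trafficking clusters have their tallest bin just above 0, with 31 clusters (32% against 12.1% of all), and a second one from 1 to 1.5, with 18 clusters (18.6% against 12.8%).

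Differences were often small. The median size of the difference was 0.66 on the log2 scale, and it was 0.95 over all clusters. A fold of at least 2 was seen in 35 clusters (36.1%, background 47.3%), which were the 34 gene-level clusters and Snap25. A fold under 1.5 was seen in 47 clusters (48.5%, against 31.7% of all) and one under 1.2 in 24 (24.7%, against 13.6%). Among the gene-level clusters the median fold was 2.47 for those higher in the adult (2.67 over all such clusters) and 2.67 for those higher at E15 (2.78 over all). A fold of at least 3 was reached by 9 of the 97 in the gene-level table, against 730 of all 3956 clusters. The members just past the gene-level threshold were Rab11b (2.01-fold), Lrp10 (2.03-fold) and Itsn2 (2.06-fold), and those just short of it were Nkd2 (1.89-fold), Mrc2 (1.84-fold) and Stx2 (1.83-fold).

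**Figure D2:**
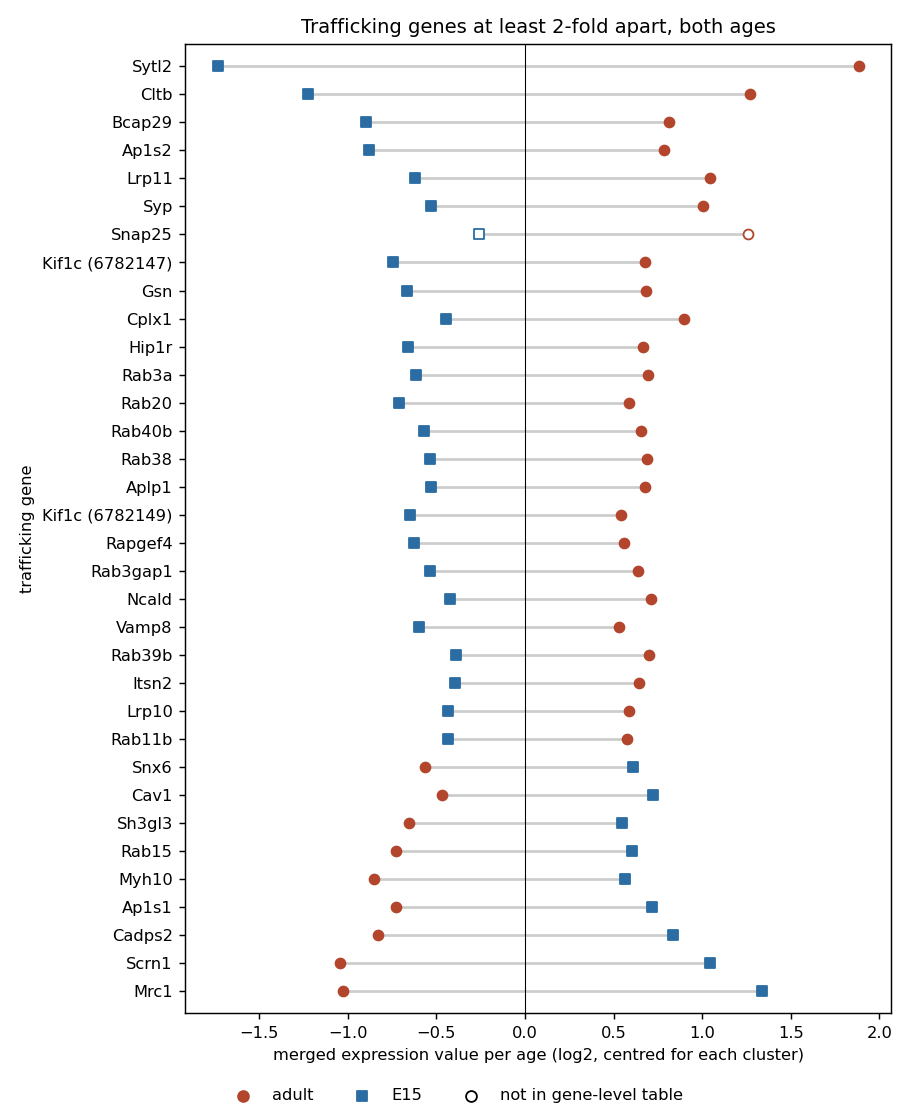
Merged values of each age (log2, centred for each cluster, horizontal axis) for 34 of the 35 trafficking clusters at least 2-fold apart (1 higher in the adult is not shown), with circles for adult, squares for E15 and open symbols for the 1 cluster absent from the gene-level table, Snap25. The 25 upper rows have the adult value to the right, led by Sytl2 (1.88 and -1.73), and the 9 lower rows have the E15 value to the right, ending with Mrc1 (-1.03 and 1.33); numbers in brackets are the cluster identifiers of the 2 Kif1c clusters.

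The promoter sequences are shown for 5 of these genes, whose values are described below. Cltb, Ap1s2 and Hip1r act at clathrin coats and were higher in the adult, Vamp8 is the only gene of the SNARE list in the gene-level table, and Ap1s1 is the paralog of Ap1s2 that was higher at E15. Each is 1 RefSeq window on GRCm38.p6, from 250 bases before to 50 bases after the annotated start, written 5′ to 3′ on the strand of the gene. The windows are chr13:54611324-54611623 (minus strand) for Cltb, chrX:163908767-163909066 (plus strand) for Ap1s2, chr5:123973378-123973677 (plus strand) for Hip1r, chr6:72390618-72390917 (minus strand) for Vamp8 and chr5:137046059-137046358 (minus strand) for Ap1s1. Capitals mark matches on either strand to the GC box GGGCGG, the cyclic AMP response element TGACGTCA or the E-box CACGTG.
Cltb: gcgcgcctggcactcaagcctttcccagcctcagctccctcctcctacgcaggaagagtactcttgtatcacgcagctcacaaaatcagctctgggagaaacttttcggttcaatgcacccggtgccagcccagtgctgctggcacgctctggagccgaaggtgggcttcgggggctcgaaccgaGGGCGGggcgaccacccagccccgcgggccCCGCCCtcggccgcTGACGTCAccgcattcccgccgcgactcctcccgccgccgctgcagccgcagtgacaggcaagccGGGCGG
Ap1s2: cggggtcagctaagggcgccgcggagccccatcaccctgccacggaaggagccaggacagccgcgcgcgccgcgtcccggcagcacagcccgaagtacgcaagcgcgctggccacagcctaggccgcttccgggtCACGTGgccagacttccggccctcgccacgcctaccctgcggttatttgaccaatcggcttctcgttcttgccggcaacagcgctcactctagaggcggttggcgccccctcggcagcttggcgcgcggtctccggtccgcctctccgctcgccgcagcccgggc
Hip1r: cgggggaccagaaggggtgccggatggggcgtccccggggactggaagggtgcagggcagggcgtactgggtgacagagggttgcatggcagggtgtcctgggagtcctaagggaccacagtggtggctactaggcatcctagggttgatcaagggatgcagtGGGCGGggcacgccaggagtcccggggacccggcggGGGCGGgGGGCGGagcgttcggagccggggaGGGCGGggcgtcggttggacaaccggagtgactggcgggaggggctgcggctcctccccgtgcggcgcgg
Vamp8: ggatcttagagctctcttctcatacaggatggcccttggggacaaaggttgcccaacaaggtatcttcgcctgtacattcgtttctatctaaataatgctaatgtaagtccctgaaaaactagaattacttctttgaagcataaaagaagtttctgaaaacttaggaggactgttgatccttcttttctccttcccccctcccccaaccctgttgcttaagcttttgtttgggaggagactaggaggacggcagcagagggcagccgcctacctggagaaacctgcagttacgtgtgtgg
Ap1s1: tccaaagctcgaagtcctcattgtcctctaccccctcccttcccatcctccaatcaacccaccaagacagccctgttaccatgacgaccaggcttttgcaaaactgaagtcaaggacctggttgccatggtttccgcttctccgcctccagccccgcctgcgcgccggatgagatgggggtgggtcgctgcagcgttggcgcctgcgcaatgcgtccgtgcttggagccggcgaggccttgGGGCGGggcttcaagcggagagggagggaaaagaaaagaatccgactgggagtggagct

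The Cltb window held the cyclic AMP response element at position -21 from the start and GC boxes at -65, -35 and 45. The Ap1s2 window held 1 E-box, at -115, and the Hip1r window 4 GC boxes, at -87, -51, -44 and -20. The window of Ap1s1 held 1 GC box, at -9, and that of Vamp8 none of the letters searched. Vamp8 also stood apart in base composition, with 46.7% G and C and 5 CpG in 300 bases, whereas the other 4 windows had 61% to 72.3% G and C and 19 to 39 CpG.

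Of the trafficking clusters, 90 were matched to RefSeq by symbol and 3 by accession, which gave 92 genes. The 4 clusters with several symbols were not matched and have no window here. A window was at hand for 76 of the 92. The GC box was found in 56 of the 76 (73.7%), against 38.2% of the windows of 27025 genes. These 27025 are all RefSeq genes with a window, whether or not they were in the joined table. The share among the other clusters of the joined table was not computed for any of the motifs, so the 2 shares compare unlike sets. The GC box was found in 14 of the 19 listed genes with higher adult values and in 8 of the 9 with higher E15 values. The cyclic AMP response element was found for Cltb, Cope and Napa (3.95% against 2.03%), and the E-box for 10 genes (13.2% against 8.09%). The letters TTCAGCACC, the left part of the RE1 element bound by REST, were found in 0 of the 76 windows and in 0.433% of all. With letters this rare, 76 windows are too few to show a lack of them. These matches describe letters in a window and not bound sites.

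Rab GTPases, the switches that give each vesicle its address, were mostly higher in the adult. Of 13 Rab clusters, 10 were higher in the adult and 3 at E15, with a median difference of 0.58. The gene-level table listed 6 of them as higher in the adult and 1 as higher at E15. Rab3a (cluster 6977032), which sits on secretory vesicles, had values of 0.69 in the adult and -0.62 at E15, a difference of 1.31 (2.48-fold). Rab20 (cluster 6980378), an endosomal and phagosomal Rab, had 0.59 and -0.71, a difference of 1.30 (2.47-fold). These 2 had almost the same difference.

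The other 4 Rab genes in the gene-level table with higher adult values spanned 2.01-fold to 2.33-fold. They were Rab40b, whose product carries a SOCS box (difference 1.22), Rab38, known from melanosomes and other lysosome-related organelles (1.22), Rab39b, best known from neurons (1.09), and Rab11b, of recycling endosomes (1.01). Rab15 (cluster 6801917), a Rab of early and recycling endosomes, went the other way, with values of -0.73 in the adult and 0.60 at E15, a difference of -1.33 (2.51-fold). The 6 Rab clusters outside the gene-level table lay between -0.39 for Rab13, a Rab of tight junction and surface traffic, and 0.58 for Rab21, which handles integrins. Rab1b, which acts between the endoplasmic reticulum and the Golgi, had a difference of -0.25. Rab8a, left out by its cell cycle term, had a difference of -0.12.

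The symbol rule also took 2 proteins that act on Rabs. Rab3gap1, the catalytic subunit of the GTPase-activating complex for Rab3, had 0.64 in the adult and -0.53 at E15, a difference of 1.17 (2.26-fold), and stood in the gene-level table like Rab3a itself. Rab11fip5, an effector of Rab11, had a difference of 0.26 and did not. A further 9 clusters of the list of Rab effectors and regulators were not chosen by the rule, and among these Myrip, which links Rab27 to myosin on secretory granules, was the only 1 listed at gene level, at a difference of 1.26 (2.40-fold). Over all 11 clusters of that list, 5 were higher in the adult and 6 at E15, with a median of -0.09. Of the 11, 2 were listed at gene level as higher in the adult and 0 at E15.

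The SNARE proteins did not share a direction. Of 7 SNARE clusters, 4 were higher in the adult and 3 at E15, and 1 was in the gene-level table. That 1 was Vamp8 (cluster 6954619), a vesicle SNARE of late endosomes and of regulated secretion in epithelial and other cells, with 0.53 in the adult and -0.60 at E15, a difference of 1.13 (2.18-fold). Of the 7 genes of the Vamp family, 3 had a cluster in the tables. The cluster shared by Vamp1, a SNARE of synaptic vesicles, and E130112N10Rik had a difference of 0.73, and Vamp7, left out by its lysosome term, one of 0.92. All 3 were higher in the adult.

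The syntaxins, target-membrane SNAREs, were split. Stx3, an apical syntaxin of epithelia whose cluster was shared with Olfr1419, had 0.29 in the adult and -0.17 at E15, a difference of 0.45. Stx2, which also acts at the cell surface, had -0.49 and 0.38, a difference of -0.87 (1.83-fold), and Stx8, of endosomes, had -0.50 and 0.19, a difference of -0.69 (1.61-fold). None of the 3 syntaxins was in the gene-level table. Ykt6, a SNARE of Golgi traffic, had a difference of -0.46.

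Snap25 (cluster 6881488), the target SNARE of neuronal and neuroendocrine release, had the largest SNARE difference and yet was not in the gene-level table. Its values were 1.26 in the adult and -0.26 at E15, a difference of 1.52 (2.87-fold), past the fold of that table. Since its fold passed, it did not meet another criterion of the table, and the deposited values do not show which. The whole series held 67 clusters of this kind among 2151 found in the splicing index table alone, and Snap25 was the only 1 among the trafficking genes.

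The proteins that prime, clamp or trigger fusion held the largest difference of all the trafficking genes. Sytl2 (cluster 6962491), a synaptotagmin-like protein that binds Rab27 and docks secretory vesicles at the membrane, had 1.88 in the adult and -1.73 at E15, a difference of 3.62 (12.3-fold). Its relative Sytl1 had a difference of 0.28. Cplx1 (cluster 6940928), a complexin that clamps assembled SNAREs, had 0.90 and -0.45, a difference of 1.35 (2.54-fold). Cadps2 (cluster 6952137), a priming factor of dense-core vesicles, went the other way, with -0.83 and 0.83, a difference of -1.66 (3.16-fold).

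Of the 10 clusters with this role, 9 were higher in the adult and Cadps2 alone was higher at E15. The 7 that were not in the gene-level table lay between 0.08 and 0.73, from Doc2a, a calcium sensor, to Stxbp5l, a tomosyn that binds syntaxins. Between them were Rims1 (0.48) and Unc13b (0.37), organizers of release sites, and Napa (0.50), the SNAP that recruits the ATPase for SNARE disassembly. Among 6 clusters of the same list that the rule did not choose, the calcium sensor Syt1 (cluster 6776872) was listed at gene level, with 1.35 in the adult and -0.62 at E15, a difference of 1.97 (3.92-fold). Syt3 (0.99) and Rph3a (0.70), a Rab3 effector, had higher adult values, and Syt7 (-0.21) and Txlnb (-0.86) had higher E15 values.

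**Figure D3:**
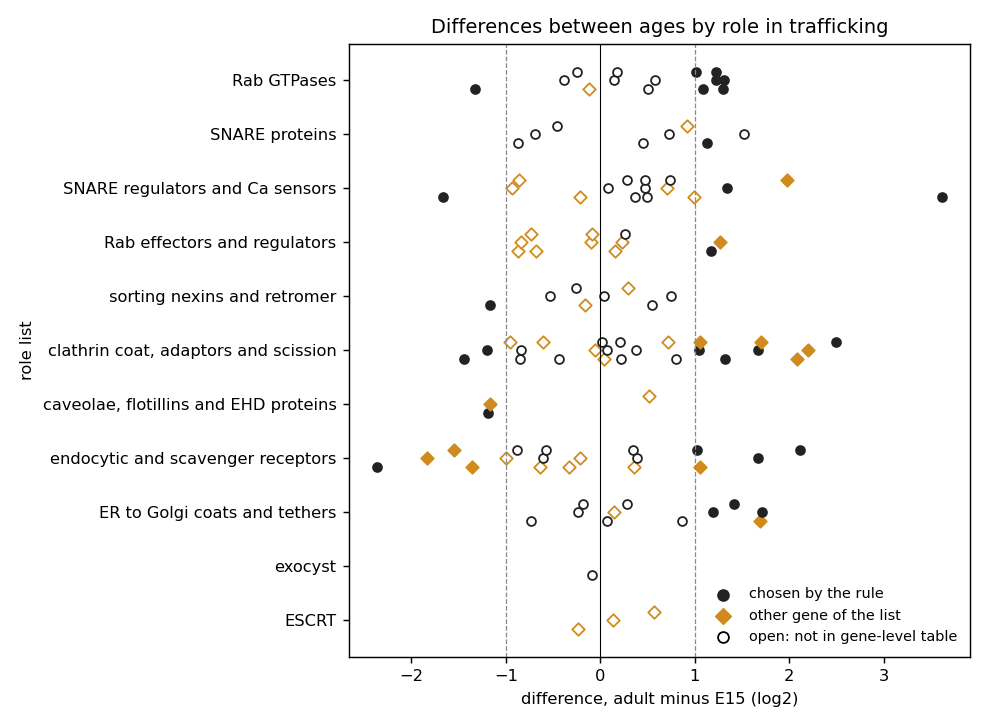
Difference between the ages (adult minus E15, log2, horizontal axis) for each gene of the 11 role lists (rows), with circles for genes chosen by the rule, diamonds for other genes of the list, filled symbols for the gene-level table, open ones for the splicing index table only, and dashed lines at 2-fold; vertical offsets within a row carry no value. Rab GTPases and SNARE regulators lie mostly to the right of 0, the clathrin list reaches from -1.44 to 2.49, and the receptors lie on both sides of 0.

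At the clathrin coat, genes of the same machine differed in opposite directions. The 15 clusters had 4 higher in the adult and 2 higher at E15 in the gene-level table, and a median difference of 0.21. Cltb (cluster 6813327), the clathrin light chain B, had 1.27 in the adult and -1.22 at E15, a difference of 2.49 (5.63-fold). It was the second largest difference among the trafficking genes.

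The AP-1 adaptor, which sorts cargo at the trans-Golgi network and endosomes, had 2 of its small sigma subunits on opposite sides. Ap1s2 (cluster 7014982) had 0.79 in the adult and -0.88 at E15, a difference of 1.67 (3.17-fold). Ap1s1 (cluster 6942523) had -0.72 and 0.72, a difference of -1.44 (2.72-fold). Ap1m1, the medium subunit, was on the side of Ap1s1 with a difference of -0.85 and was not in the gene-level table. Gga2, another adaptor of the trans-Golgi network, had a difference of 0.37, and the AP-3 subunits Ap3b1 and Ap3s2 had 0.22 and -0.44.

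Hip1r and Hip1, paralogs that connect clathrin coats to actin, were also on opposite sides. Hip1r had 0.66 in the adult and -0.66 at E15, a difference of 1.32 (2.50-fold), while Hip1 had -0.47 and 0.38, a difference of -0.84, and was not in the gene-level table. Itsn2, an intersectin scaffold, had a difference of 1.04 (2.06-fold). Sh3gl3, an endophilin that bends the neck of the bud, had -0.66 in the adult and 0.55 at E15, a difference of -1.20 (2.30-fold). The dynamins Dnm2 and Dnm3, which cut the bud off, differed by 0.07 and 0.02.

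Of 9 further clusters of the clathrin list that the rule did not choose, 4 were in the gene-level table, all higher in the adult. They were Epn3, an epsin (2.20), Dnajc6, the auxilin that helps strip the coat (2.08), Synj2, a lipid phosphatase of uncoating (1.70), and the cluster of Aak1, an adaptor kinase, and LOC100043555 (1.05). The other 5 stood only in the splicing index table, and were Gak, the second auxilin (0.71), Arrb1 (0.03), Bin1 (-0.06), Dab1 (-0.61) and Numbl (-0.96). With these the list counted 24 clusters, 16 higher in the adult and 8 at E15, of which 8 and 2 were in the gene-level table. The median of the 24 was 0.21, as for the 15, and 14 of the 24 stood only in the splicing index table.

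Sorting nexins, which shape tubules and return cargo from endosomes, were balanced. Of 6 clusters, 3 were higher in the adult and 3 at E15. Snx6 (cluster 6800894), a nexin of the retromer coat, was the only 1 in the gene-level table, with -0.57 in the adult and 0.61 at E15, a difference of -1.17 (2.25-fold). Its partner Snx5 had a difference of -0.26. Snx14 and Snx13 had 0.75 and 0.54, Snx26 had -0.53, and Snx9, a partner of dynamin, had 0.04. The retromer subunit Vps29, not chosen by the rule, had 0.29.

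Caveolin 1 (Cav1, cluster 6944372), the coat protein of caveolae, had -0.47 in the adult and 0.72 at E15, a difference of -1.19 (2.28-fold). The flotillin Flot2, not chosen by the rule, was also listed as higher at E15, at -1.16 (2.24-fold). Caveolae are abundant in endothelium, and the endothelial marker list moved with these values. All 6 of its clusters in the tables, of 13 markers, were higher at E15, with Cdh5 the largest at -2.10, and their part in the Cav1 value was not tested.

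The endocytic receptors lay on both sides. Of 9 clusters, 3 were higher in the adult and 1 at E15 in the gene-level table. Lrp11, an Lrp family receptor, had 1.04 in the adult and -0.62 at E15, a difference of 1.67 (3.17-fold), and Lrp10, of the same family, had 0.59 and -0.43, a difference of 1.02 (2.03-fold).

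Both were higher in the adult by more than the other Lrp receptors. Lrp8 and Vldlr, receptors for reelin and apolipoprotein E, had differences of 0.39 and 0.35, and Lrp4, a receptor in agrin and Wnt signalling, had -0.61. The cluster shared by Lrp1b, Ran and LOC100045999 was left out by a cell cycle term and was 1.99-fold higher at E15.

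The mannose receptor Mrc1 (cluster 6875181), an endocytic lectin of macrophages and some endothelial cells, had -1.03 in the adult and 1.33 at E15, a difference of -2.36 (5.14-fold). It was the largest E15 difference among the trafficking genes. Mrc2, a collagen receptor of the same family, had -0.70 and 0.18, a difference of -0.88, and Ly75, another member, -0.57. Among the other receptors of the list, Stab1 (-1.84), Colec12 (-1.55) and Fcer1g (-1.36) were in the gene-level table and higher at E15, and Mertk (1.05), which takes up dying cells, was higher in the adult. With them the receptor list counted 18 clusters, 4 in each direction in the gene-level table.

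The macrophage and microglia markers did not run in 1 direction beside Mrc1. Of 17 markers, 7 had a cluster. The MHC class II genes Cd74 (3.16), H2-Aa (2.53) and the cluster of H2-Ab1, Rmcs5 and Rmcs2 (1.56) were in the gene-level table and higher in the adult. Csf1r (-0.92), Cx3cr1 (-0.81), Tyrobp (-0.54) and Ptprc (-0.15) were higher at E15 and not in that table. Their part in the values of Mrc1 and the other scavenger receptors was not tested.

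Between the endoplasmic reticulum and the Golgi, 9 clusters had 3 in the gene-level table, all higher in the adult. Bcap29, a membrane protein of the endoplasmic reticulum, had 0.81 in the adult and -0.90 at E15, a difference of 1.71 (3.27-fold). Kif1c, a kinesin motor that carries vesicles, had 2 clusters in the table, with differences of 1.42 (2.67-fold) and 1.19 (2.28-fold), both in the same direction. Tmed3, a cargo receptor that the rule did not choose, was also in the table at 1.69 (3.23-fold). The coat proteins themselves differed little. Copg, Arcn1 and Cope of the COPI coat had 0.07, -0.19 and -0.24, and Sar1b, the GTPase that starts the COPII coat, had 0.28. Arf4, a GTPase of Golgi membranes, had -0.73.

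The exocyst, which tethers secretory vesicles to the plasma membrane, had 1 cluster, Exoc1, with a difference of -0.09. The ESCRT machinery of multivesicular bodies had no cluster chosen by the rule, and 3 list genes had differences of 0.57 (the cluster of Chmp4c and LOC100044854), 0.14 (Stam2) and -0.23 (Chmp2a), none in the gene-level table.

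A further 24 clusters had a process term and were in none of the role lists, with 5 higher in the adult and 2 at E15 in the gene-level table. Synaptophysin (Syp, cluster 7009774), a membrane protein of synaptic vesicles, had 1.01 in the adult and -0.53 at E15, a difference of 1.54 (2.90-fold). Gelsolin (Gsn), which severs actin filaments, had a difference of 1.35 (2.55-fold). Aplp1 of the amyloid precursor family (1.21), Rapgef4, an exchange factor switched on by cyclic AMP (1.18), and Ncald, a neuronal calcium sensor (1.14), completed the 5. At E15, Scrn1 (cluster 6953762), a secernin named for its part in mast cell exocytosis, had -1.04 in the adult and 1.05 at E15, a difference of -2.09 (4.26-fold). Myh10, the heavy chain of non-muscle myosin IIB, had -0.85 and 0.56, a difference of -1.41 (2.67-fold).

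The other 17 clusters of this kind ranged from -0.92 to 0.85. Nkd2, which escorts vesicles carrying transforming growth factor alpha, was the lowest, and Myo5a, a myosin that moves vesicles along actin, the highest. Myo6, the myosin that walks towards the pointed end, had a difference of 0.36, and Pclo, a scaffold of the presynaptic zone, 0.66. The remaining 13 lay between -0.22 and 0.45.

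Over the 11 role lists, 117 clusters had values, of which 28 were higher in the adult and 11 at E15 in the gene-level table. The 44 list genes that the rule did not choose were nearly even, with 21 higher in the adult and 23 at E15 and a median of -0.07. Of the 44, 8 were listed at gene level as higher in the adult and 4 at E15, and whether these 44 differed from the 97 chosen clusters was not tested.

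By process term, the 32 clusters with "vesicle-mediated transport" had 9 higher in the adult and 1 at E15 in the gene-level table, and a median difference of 0.36. The 31 with "endocytosis" had 8 and 4, and a median of 0.21, and the 17 with "exocytosis" had 3 and 3, and a median of 0.37. The 22 clusters taken by symbol alone had 6 and 2, and a median of 0.22. Only 5 clusters carried more than 1 of the 3 terms.

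Component annotations that the rule did not use were shared by parts of the set. A coated pit or coated vesicle term stood with 12 clusters (12.4%, against 0.354% of all), of which 6 were higher in the adult and 1 at E15 in the gene-level table, with a median of 0.69. The joined table held 14 clusters with such a term, so these are nearly all of them, and the median of the 14 was 0.58. A Golgi term stood with 30 (30.9%, against 4.15%), with 5 and 2 in the gene-level table and a median of 0.32. Over all 164 clusters with a Golgi term these were 52 and 26, with a median of 0.38. Cytoplasmic vesicle terms stood with 20, of which 10 were higher in the adult and 10 at E15, with a median of -0.06, and the median over all 51 clusters with such a term was 0.56.

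A component term with "synap" stood with 15 of the 97 clusters (15.5%, against 2.55% of all), and 14 of the 15 were higher in the adult. Their median was 0.37, and it was 0.29 over the 101 clusters of the joined table with such a term. Of the 101, 23 were higher in the adult and 15 at E15 in the gene-level table. The smallest of the 14 differences were those of Snapin (0.04), Dnm2 (0.07) and Doc2a (0.08). Of the 15, Syp and Rab3a were in the gene-level table as higher in the adult, and Cadps2 as higher at E15. Snap25, Vamp1 with E130112N10Rik, Pclo and Rims1 followed with differences from 0.48 to 1.52. Without the 15 clusters, 23 and 8 of the remaining 82 were higher in the adult and at E15 in the gene-level table, and the median was 0.26.

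Neuronal markers moved with these synaptic genes in part. Of 18 neuronal markers, 8 had a cluster, 4 higher at each age. Camk2a (2.66), Slc17a7 (1.73), Grin1 (1.26) and Eno2 (1.25) were higher in the adult, and of these Eno2 alone was in the gene-level table. Dcx, a marker of young neurons (-2.29), Nefm (-1.71), Gap43, a growth cone protein (-1.03), and Elavl4 (-0.90) were higher at E15, and the first 3 were in that table. Of 7 oligodendrocyte markers, 3 had a cluster, all in the gene-level table and higher in the adult, among them Mbp (2.09). The part of either cell type in the values of Syp, Snap25, Cplx1 and Syt1 was not tested.

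**Figure D4:**
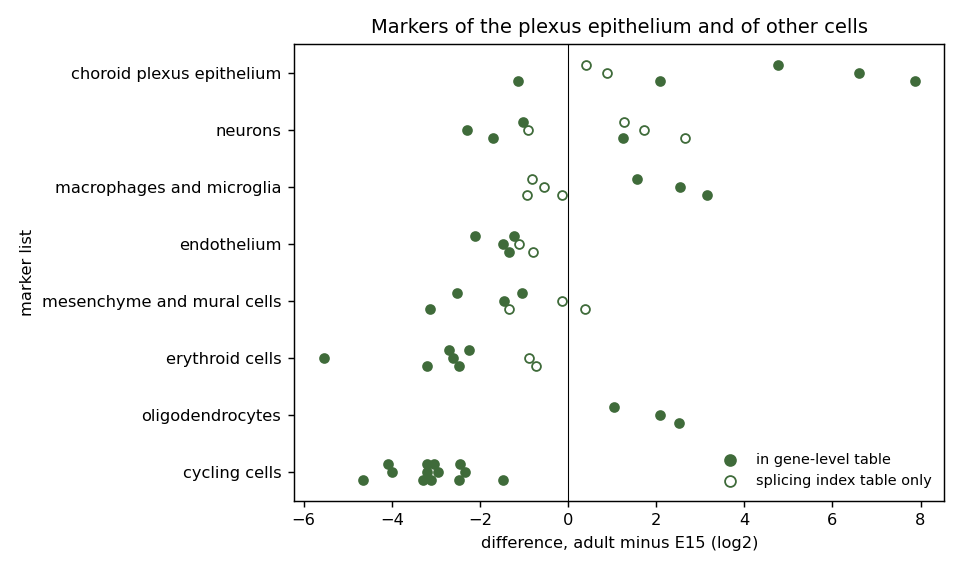
Difference between the ages (adult minus E15, log2, horizontal axis) for the clusters of 8 marker lists (rows), filled when in the gene-level table and open when in the splicing index table only; vertical offsets within a row carry no value. Cycling, erythroid and endothelial markers all lie left of 0, oligodendrocyte markers all lie right of it, and neuronal and macrophage markers lie on both sides.

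The other marker lists describe how the tissue pieces differed. Among 13 markers of the plexus epithelium, 6 had a cluster, of which Prlr (7.87), Kl (4.78) and Cldn2 (2.10) were higher in the adult and Kcne2 (-1.13) at E15 in the gene-level table. Values centred for each cluster cannot show how strongly these genes were expressed, and Ttr, Folr1, Aqp1, Otx2, Clic6, Slc4a5 and Kcnj13 had no cluster in the tables, so the labelled tissue could not be checked by its defining genes. All 13 clusters of cycling cells (Top2a -4.65), all 8 of erythroid cells (Hbb-y -5.55) and 6 of 7 of mesenchyme and mural cells (Col3a1 -3.14) were higher at E15. Their part in the lean of the trafficking genes was not tested.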

How the data were processed

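The deposited tables hold log2 values that the authors made in Affymetrix Power Tools (RMA, median per chip) and merged to 1 value per age. The authors' filter, unpaired test (Benjamini-Hochberg) and 2-fold threshold made the gene-level table. The versions of these tools and the genome build are not given in the sources used here. The deposited fold change, direction and splicing index columns are the authors' own comparisons and were not used, so the planned count of opposite splicing index signs and the genes to be named by it were left out. Values of the 1218 clusters in both tables were identical.

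The tables were joined by cluster identifier and differences, counts and medians computed in Python 3.11.15 with numpy 2.4.6 and matplotlib 3.10.9. The member rule was tested on simulated data. The members, role lists and marker lists were chosen with earlier results of these data known. Genes named were those with a Vamp or Stx symbol, Snx and Rab genes of the gene-level table, the 10 largest differences in each direction, the 4 largest of each role list and the largest of each marker list. Others were named, after their values were seen, to complete a group. Sample labels, study methods and supplement give different pool sizes, and those printed are from the labels. Values of a few members and list genes are not reported here. Promoter windows were matched by symbol or accession.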

Additional observations from a re-analysis of the deposited data

How the results depend on the processing

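With a fold threshold of 3, the gene-level members higher in the adult fell from 25 to 6 and those higher at E15 from 9 to 3, which left 9 members past that fold. With a threshold of 4 they were 3, 2 and 5. Setting each age to the median of the joined table moved the median difference from 0.28 to 0.43, by construction, since it added 0.15 to every difference. The other 29 of 36 recomputed counts and medians stayed within 1.5 times, and none reversed. All 34 gene-level members kept their sign and stayed past 2-fold after re-centring. An addition of 0.15 could not turn the sign of a member past 2-fold. It could not bring the 25 higher in the adult below that fold either, so only the 9 higher at E15 could have fallen short. Leaving out annotations inferred electronically gave 62 members, 17 and 6 of them higher in the adult and at E15 in the gene-level table. Leaving out members with a synaptic component, an alternative chosen after seeing the data, gave 82. No paired analysis was possible because the deposited columns hold 1 merged value per age, and for the same reason no replicate could be left out. Depth in the sense of signal over background cannot be read from centred values.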

Other observations

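Most clusters had adult and E15 values of nearly equal size on either side of 0, and the median size of the sum was 0.09 over the trafficking clusters and 0.08 over all. A few did not, a pattern chosen after the values were seen. A sum of at least 0.4 in size was found in 6 of the 97 trafficking clusters (6.19%) and in 169 of all 3956 (4.27%). In all 6 the adult value was the one farther from 0. The sum was above 0 in 5, which were Snap25 (sum 1.00), Stxbp5l (0.64), Syp (0.47), Cplx1 (0.45) and Lrp11 (0.42), and below 0 in Mrc2 (-0.52), with -0.70 in the adult and 0.18 at E15. Of the release genes that the rule did not choose, Syt1 (0.73) and Rph3a (0.58) had the same form, as did the neuronal markers Camk2a (1.79), Slc17a7 (1.27) and Grin1 (0.77). Markers of other cells passed this size too, with Ccna2 at 0.41, Col1a1 at -0.64, the cluster of Hbb-b1 and Hbb-b2 at -0.67, Pdgfra at -0.68 and Hbb-y at -0.81. How the merged values were averaged and centred is not stated, and whether 1 array lies behind these sums could not be read from merged values.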
